A study of Mus musculus with 36 samples.

Results

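The genes described here encode the receptors for glutamate and GABA, the main excitatory and inhibitory transmitters of the brain. They were taken by symbol, as every gene named Gria, Grik or Grid with a digit, Grin with a digit, Grm with 1 digit, or Gabr followed by the letter of a GABA-A subunit class, and the antisense gene Grin1os was left out. The pattern found 46 of the 40205 genes in the count tables. They were 4 AMPA, 5 kainate, 7 NMDA and 2 delta subunit genes, 8 metabotropic glutamate receptor genes and 19 GABA-A subunit genes, and Grid2ip, a scaffold protein that forms no channel and was kept apart. GABA-B receptor genes (Gabbr) were not part of the set.

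Libraries of total RNA, without ribosomal RNA, were made from neural stem cells (NSCs) of fetal mice grown as neurospheres and from the extracellular vesicles (EVs) that these cultures released into their medium. The NSCs came from the dorsal telencephalon, the future isocortex, of GD 12.5 fetuses of wild type C57BL/6J mice (the study's methods give the line as C57BL/6J (Ai14), a reporter line), and the tissue of each of 3 pregnancies was pooled by fetal sex, so that 1 female and 1 male culture of each pregnancy gave 6 cultures, named 3F, 3M, 4F, 4M, 5F and 5M. Each culture was held for 5 days at 0 mg/dL (control), 120 mg/dL or 320 mg/dL ethanol, and 1 EV and 1 cell library was made at each dose, which gave 18 EV and 18 cell libraries in 12 conditions of 3. Passaged neurospheres can hold progenitors and their early progeny, and the number of cells of a type and the RNA per cell cannot be told apart in these libraries. Of 11 neural stem cell markers, 10 had a mean above 1 CPM in cells, and Sox2 was listed at 0 in all 36 libraries. The 10 neuron markers summed to 436 to 914 CPM in cells. Most of that was Map2 (mean 619 CPM), and no other neuron marker had a mean above that of Rbfox3 (16.9 CPM). Aqp4 of astrocytes, Dlx6 of interneurons and P2ry12 of microglia were also listed at 0 in all 36 libraries, and as Sox2 was too, a 0 for one of them does not show that a cell type was absent. The 5 astrocyte markers summed to 19.8 to 248 CPM in cells, with Gfap highest (mean 87.1 CPM). The 7 oligodendrocyte lineage markers summed to 302 to 591 CPM in cells, with Olig1 highest (mean 266 CPM). EV libraries held 0.959 to 5.51 M counts, 6 of them under 2 M, against 26.6 to 55.3 M in cell libraries, so that the members' median count had a median over members of 19.75 in EV libraries and 72 in cell libraries.

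AMPA, kainate and NMDA receptors are channels assembled from 4 subunits that open when glutamate binds. The delta receptors belong to the same family by sequence, and the metabotropic receptors signal through G proteins. GABA-A receptors are chloride channels, typically built of alpha and beta subunits with a gamma or delta subunit. Before synapses form, cortical progenitors already carry several of these receptors, which act on their calcium and their division, and NMDA and GABA-A receptors are classical direct targets of ethanol in the brain. Values below are counts per library or CPM, counts scaled by TMM to 1 M per library. Levels are compared between genes only as CPM per kb of annotated exon.

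The 4 AMPA receptor genes show how alike members are and where they part. A stretch of 90 coding bases was read from the mouse genome (GRCm39) in the segment where their reading frames are most alike, to show how far reads of these genes, whose EV levels went in opposite directions, can be told apart. Bases that differ from Gria1 are in capitals.
Gria1, chr11:57174367-57174456, plus strand: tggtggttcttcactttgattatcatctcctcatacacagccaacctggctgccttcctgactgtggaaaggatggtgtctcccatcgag
Gria2, chr3:80609843-80609932, minus strand: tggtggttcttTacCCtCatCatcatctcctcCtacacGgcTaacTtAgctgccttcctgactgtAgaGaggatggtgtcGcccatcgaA
Gria3, chrX:40709705-40709794, plus strand: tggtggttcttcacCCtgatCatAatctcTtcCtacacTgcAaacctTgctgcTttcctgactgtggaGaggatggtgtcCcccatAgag
Gria4, chr9:4461984-4462073, minus strand: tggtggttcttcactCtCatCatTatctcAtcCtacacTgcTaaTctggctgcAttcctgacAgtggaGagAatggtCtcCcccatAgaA
Gria2 differed from Gria1 at 14 of these 90 bases, Gria3 at 13 and Gria4 at 17. The longest run of identical coding bases between any members of a family was 81, between Gabrr1 and Gabrr2, and the longest among the AMPA genes was 35, between Gria1 and Gria2. Outside the set, 2225 bases of Grin2a were 99.91% identical to the transcript of Gm7328, and 325 bases of Grin2b were 100% identical to that of Gm65988, so the counts of Grin2a and Grin2b are uncertain to that extent.

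In cells, Grm5 led the set. Grm5 (group I metabotropic receptor, coupled to calcium release) had 4332 to 22598 counts in the 18 cell libraries and a mean level of 24 ± 4.15 CPM per kb (SD, n = 6 cultures). Further members with high levels were Grm4 at 5.91 ± 3.32, Gria2 at 5.04 ± 3.11, Grid1 at 5.03 ± 2.41, Grm3 at 4.41 ± 1.65 and Gabrg1 at 4.13 ± 1.72 CPM per kb. The highest and lowest of these 5 means differed by less than the SD of the highest, and their order was not tested. The Grm4 mean pools all doses, and its cell libraries fell in a low and a high range (given below). By dose its mean in cells was 72.9 CPM at 0, 29.5 CPM at 120 and 18.9 CPM at 320 mg/dL. Among the glutamate receptor families the highest cell level per kb belonged to Gria2 (AMPA), Grik5 (kainate, 1.67 ± 0.192), Grid1 (delta), Grin3a (NMDA, 1.4 ± 0.469), and Grm5 (metabotropic). Only 11 of 46 members were above 1 CPM per kb in cells. Grin1, the subunit that every NMDA receptor needs, stood at 0.123 ± 0.0181 CPM per kb.

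At the low end, Gabrd, Gabra6, Grm6 and Grm2 had at most 11 counts in any cell library and at most 5 in any EV library. Gabrd, a subunit best known from receptors outside synapses in the adult brain, had 0 to 4 counts in cell libraries of at least 26.6 M counts. The Gabra2 and Gabrg1 genes were counted in every library.

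The levels in EVs kept much of this order. Across the 46 members, EV and cell means per kb had a Spearman rho of 0.9 and a Pearson r of 0.82 on the log2 scale, given as a description over genes that share libraries and are not independent. The range was narrower in EVs, with a ratio of 5.71 between the upper and lower quartile of members against 22 in cells, and 23 members were above 1 CPM per kb. The 3 highest were Grm4 at 190 ± 126, Grik4 at 75.7 ± 44.2 and Grid1 at 11.8 ± 2.98 CPM per kb. Grm5 came next at 9.13 ± 1.55. The EV libraries of Grm4 also fell in a low and a high range (given below), and its mean pools them. The plot of EV against cell levels shows Grm4 and Grik4 well above the band in which the other members lie.

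**Figure D1:**
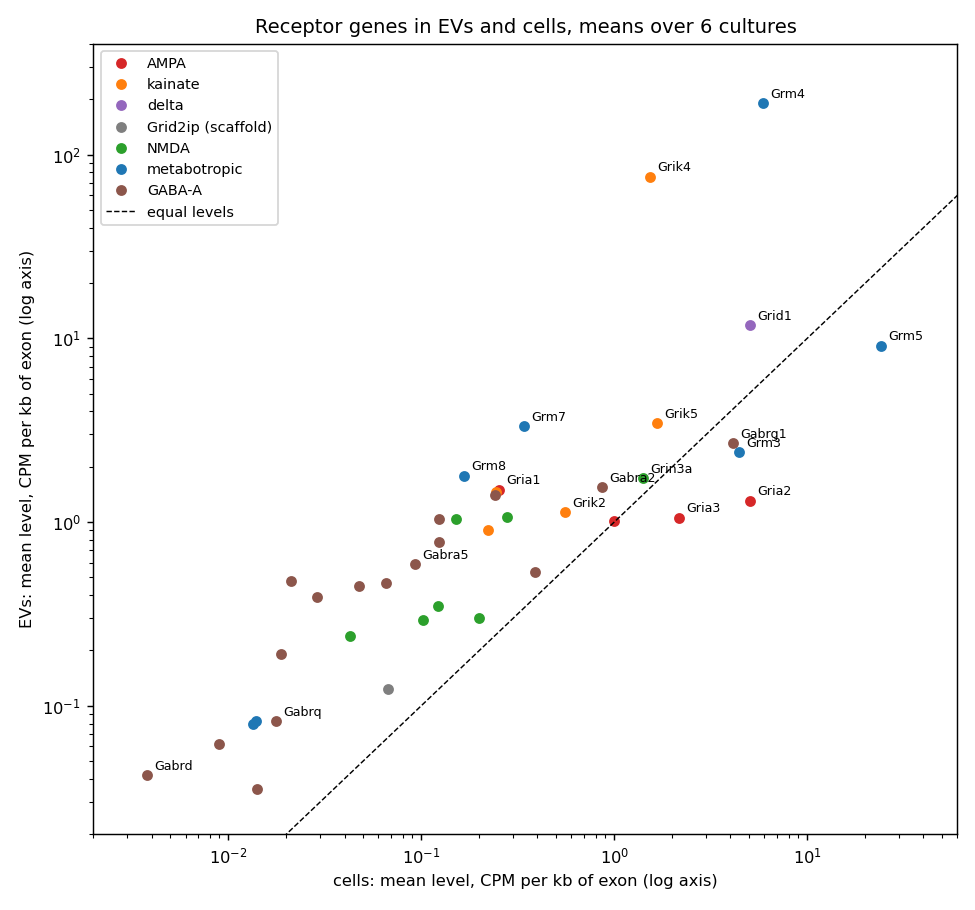
Mean level of 41 members in cells (x axis) and in EVs (y axis), both in CPM per kb of exon on log axes, coloured by family, with a dashed line at equal levels. Members below 0.1 CPM per kb in cells all lie above the line, and Grm5, Gria2, Grm3, Gabrg1 and Gria3 lie below it.

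The first comparison asked which receptor transcripts were richer or poorer in EVs than in the cells that released them. Of 34 members with enough counts to be tested, 26 were higher in EVs, 6 were lower and 2 did not pass (edgeR quasi-likelihood test over all genes, Benjamini-Hochberg adjusted p under 0.05, 18 EV and 18 cell libraries). The 3 dose libraries of a culture entered separately, so the p-values of EV against cell rest on 6 cultures from 3 pregnancies and are too small. Over all 15281 genes tested, 80.5% passed, 38.4% as higher and 42.2% as lower. The median log2 fold change was 1.68 for the tested members and -0.08 for all genes tested. Scaled by library totals in place of TMM, the median of all genes moved to -0.88, 27.0% of the calls over all genes were of higher genes where 47.6% had been, and 19 members were higher and 8 lower. DESeq2, which tested all 46 members, called 38 higher and 6 lower, with a median of 1.73 over all genes and 72.9% of its calls higher. Among all tested genes under 3 CPM in cells, 66.8% were higher in EVs, and among those at 3 CPM or more 27.1% were; of the members, 17 of 18 tested under 3 CPM and 9 of 16 at 3 CPM or more were higher. A gene passes the count filter through the location where it is high, so these counts do not describe all 46 members.

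Some genes of tissues outside the brain, which NSCs should lack, were higher in EVs too. The 22 on a list drawn up for this purpose summed to 36 to 494 CPM in EV libraries and to 7.76 to 13.5 CPM in cell libraries, and of the 4 that could be tested 2 (Nphs1 and Ttn) were higher in EVs and 0 lower. Most of the sum was Nphs1, a gene of the kidney filter, and without it the sums were 10.4 to 57.5 CPM in EVs and 6.06 to 12.3 CPM in cells, which overlap. Summed neuron markers were lower in EVs (224 to 423 CPM) than in cells (436 to 914 CPM), with 3 higher and 3 lower of 8 tested. Most of this sum was Map2, at 619 ± 146 CPM in cells and 229 ± 33.2 CPM in EVs (SD, n = 6 cultures), so its direction is that of Map2. Tbr1, Syt1 and Bcl11b were higher in EVs, and Map2, Tubb3 and Snap25 were lower. Microglial markers other than P2ry12 summed to 1.09 to 15.1 CPM in EVs and 0.521 to 0.896 CPM in cells. The part of such signal in the members' EV levels was not tested.

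**Figure D2:**
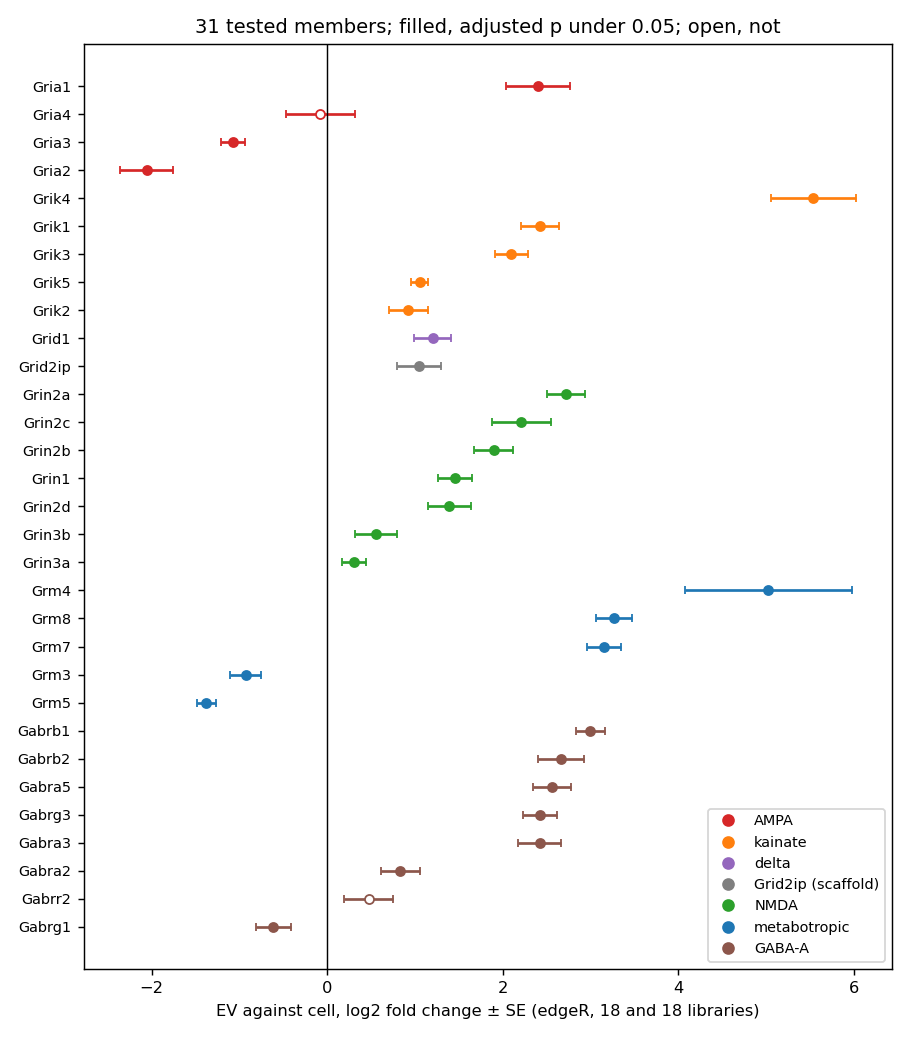
EV against cell log2 fold change (x axis, positive values higher in EVs) with its standard error for 31 of the 34 tested members, grouped and coloured by family; filled points passed an adjusted p of 0.05. With this TMM scaling all 5 kainate and 7 NMDA genes lie to the right of 0 (with library totals Grin3a and Grin3b lie to the left), while AMPA, metabotropic and GABA-A genes lie on both sides.

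The AMPA family split, with 1 gene higher, 2 lower and 1 not past the threshold (with library totals 1 higher and 3 lower). Gria2, the subunit that makes AMPA channels impermeable to calcium once its transcript is edited, was lower in EVs. It had 2176 to 14627 counts in cell libraries (median 5680) and 4 to 323 in EV libraries (median 79), or 41.4 to 267 CPM in cells and 6.64 to 104 CPM in EVs. The EV library was below its own cell library in 18 of 18 pairs, although the ranges overlapped. Culture 3M was lowest in both (means of 47.0 CPM in cells and 7.18 in EVs) and 5F highest in both (258 and 86.7 CPM). EV against cell this was -2.06 ± 0.30 on the log2 scale (SE; adjusted p = 1.31e-07, edgeR). Gria3 was lower too, with 27.7 ± 5.64 CPM in cells against 13.4 ± 4.15 in their EVs (n = 6 cultures, SD; log2 fold change -1.08 ± 0.14, adjusted p = 4.91e-09, edgeR). Gria1, by contrast, was higher in EVs in 6 of 6 cultures, with 3.63, 8 and 44.1 CPM as the lowest, median and highest EV library and 0.877, 1.43 and 6.22 CPM in cells (log2 fold change 2.40 ± 0.36, adjusted p = 2.49e-07, edgeR). Gria4 did not pass, at 18.4 ± 13.2 CPM in EVs and 17.9 ± 18.4 in cells, where culture 4M alone was at 54.3 CPM and 3M at 3.14.

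All 5 kainate genes were higher in EVs, 3 of them also with library totals. Grik4, a kainate subunit that forms channels only together with Grik1 to Grik3 partners, had the largest fold change of the set. Its counts were 272 to 1195 in cell libraries and 55 to 6581 in the much smaller EV libraries, which is 4.79, 16.4 and 19.8 CPM (lowest, median, highest) in cells and 16.7, 452 and 2391 CPM in EVs. The log2 fold change was 5.53 ± 0.48 (adjusted p = 8.25e-13, edgeR), and the EV library was the higher one in 17 of 18 pairs. Grik5, the other subunit of that kind, stayed within a narrow range, 12.1 to 23.1 CPM in cells and 19.9 to 45.4 CPM in EVs, and was higher in 18 of 18 pairs (log2 fold change 1.05 ± 0.10, adjusted p = 2.5e-12, edgeR). Grik1, Grik2 and Grik3 were higher by 2.42 ± 0.22, 0.92 ± 0.22 and 2.10 ± 0.19 on the log2 scale. With library totals Grik2 and Grik5 no longer passed, at 0.08 and 0.26.

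The delta receptor gene Grid1, whose protein helps to organise synapses, had 423 to 3078 counts in cell libraries and 46 to 324 in EV libraries. It rose from 31.5 ± 15.1 CPM in cells to 73.8 ± 18.7 in EVs, in 18 of 18 pairs (log2 fold change 1.20 ± 0.21, adjusted p = 3.73e-06, edgeR), and with library totals it did not pass, at 0.39. The scaffold gene Grid2ip had 0 to 8 counts in EV libraries and a log2 fold change of 1.04 ± 0.25 (adjusted p = 0.000357, edgeR; 0.22 and not past the threshold with library totals). Whether reads were counted by strand is not given in the sources used here.

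All 7 NMDA genes passed as higher, whereas with library totals 5 were higher and 1, Grin3a, was lower. Grin2c, Grin2d and Grin3b rested on a median of only 4.5, 5 and 2.5 counts per EV library. Grin2a, one of the glutamate-binding subunits, showed no overlap, with 43 to 311 counts in cells (1.18 to 5.36 CPM) and 11 to 102 in EVs (8.69 to 36.5 CPM; log2 fold change 2.72 ± 0.22, adjusted p = 9.14e-14, edgeR). Grin2b, the main glutamate-binding subunit before birth, stood at 7.11 ± 2.99 CPM in cells and 27 ± 13.4 in EVs (1.90 ± 0.22). Grin1 had 39 to 109 counts in cells and 0 to 22 in EVs, at 1.46 ± 0.19 on the log2 scale. Grin3a, the most abundant NMDA gene per kb in both, was close to level, at 18.4 ± 6.16 CPM in cells and 22.7 ± 3.8 CPM in EVs, and higher in EVs in 4 of 6 cultures (log2 fold change 0.30 ± 0.14, adjusted p = 0.042, edgeR). With library totals its fold change turned to -0.47, and that of Grin3b from 0.56 to -0.28. Of the exon bases of Grin3b, 32.4% lie opposite exons of another gene, Tmem259, so its counts are uncertain.

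The metabotropic genes went both ways, with 4 of 6 tested higher and 2 lower under either scaling. Grm5, the most abundant member in cells, was lower in EVs without any overlap: 170 to 382 CPM in cells against 75.4 to 126 CPM in EVs (log2 fold change -1.38 ± 0.11, adjusted p = 2.43e-14, edgeR). Grm3, a group II receptor that lowers cyclic AMP, was lower in EVs in 5 of 6 cultures (-0.93 ± 0.18), and Grm2, the other gene of that group, was not tested. In group III, receptors best known for damping transmitter release, Grm8 had 46 to 139 counts in cells and 7 to 127 in EVs, or 0.895 to 3.03 CPM and 5.15 to 55.2 CPM, without overlap (log2 fold change 3.26 ± 0.20, adjusted p = 7.01e-17, edgeR). Grm7 was alike, at 2 ± 0.377 CPM in cells and 19.6 ± 13 in EVs (3.15 ± 0.20).

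Of the 19 GABA-A genes, 9 could be tested, 6 were higher in EVs, 2 lower and 1 did not pass (with library totals 5 higher and 2 lower). Gabrg1, a gamma subunit also found in glia, was lower in 6 of 6 cultures, at 27.4 ± 10.5 CPM in EVs and 41.9 ± 17.5 in cells (-0.61 ± 0.20, adjusted p = 0.00497, edgeR), and this call was lost without pregnancy 5 (-0.32) and in the control libraries alone. Of the beta genes, Gabrb1 and Gabrb2 were higher: Gabrb1 had no overlap, at 1.33 to 2.84 CPM in cells and 6.66 to 41.8 CPM in EVs (3.00 ± 0.16), and Gabrb2 was at 0.722 ± 0.251 and 5.13 ± 3.82 CPM (2.66 ± 0.26). The alpha genes Gabra3 and Gabra5 were higher by 2.42 ± 0.25 and 2.56 ± 0.22 on the log2 scale, on a median of 9 and 11 counts per EV library. Gabra2, the alpha gene with most counts, was at 13.8 ± 4.56 CPM in EVs and 7.73 ± 3.78 in cells (0.83 ± 0.23, adjusted p = 0.00119, edgeR), a call that was lost with library totals (0.04) and with counts summed over doses (0.53). Gabrr2, of the rho class best known from the retina, did not pass.

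GABA-A genes lie in clusters, and neighbours did not always share a direction. On chromosome 7 (GRCm39), Gabra5 (57055164 to 57240831, minus strand) and Gabrg3 (56366213 to 57036936, minus strand) were both higher. On chromosome 5, Gabrg1 (70906506 to 70999960) was lower, while Gabra2 (71114573 to 71253662) and Gabrb1 (71815456 to 72319431) were higher. The 10 untested GABA-A genes included Gabra4, Gabra6, Gabrd, Gabre, Gabrp, Gabrq, Gabrr1 and Gabrr3. None of the 10 had more than 21 counts in any cell library or more than 13 in any EV library.

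In counts of libraries that do not overlap, 6 of the 34 tested members (among them Gabrb1, Gabrg3, Grin2a, Grm7 and Grm8) had all 18 EV libraries above all 18 cell libraries, against 9.04% of all genes tested, and 1 (Grm5) had all EV libraries below, against 14.8%. By culture, 19 of the 34 were higher in EVs in 6 of 6 and 5 in 0 of 6. The share of all genes with one direction in all cultures was not counted, and 80.5% of all genes passed this comparison. Across the tested members the fold change had a Spearman rho of 0.35 with the span of the gene on the genome, of 0.01 with its exon length and of -0.48 with the mean cell level per kb, which enters the fold change itself, as a description over 34 genes of the same libraries.

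**Figure D3:**
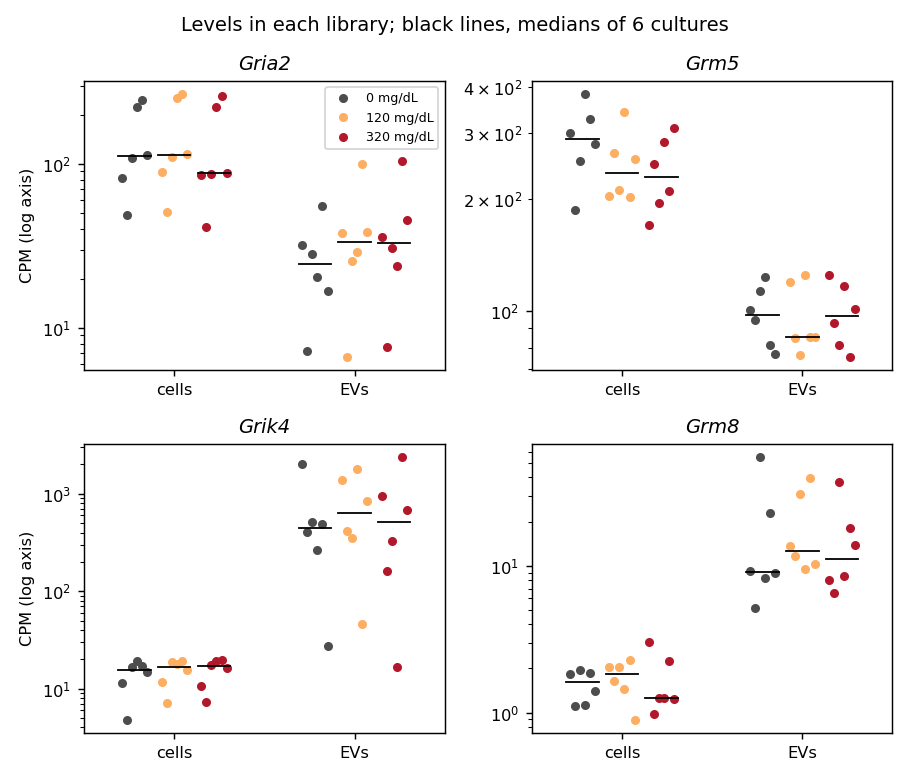
CPM (log axes) by library of 4 members with a large change and one direction in all 6 cultures, Gria2 and Grm5 lower and Grik4 and Grm8 higher in EVs; colours give the ethanol dose and black lines the median of 6 cultures. In Grm5 and Grm8 no EV library reaches the range of the cell libraries, and Grik4 spans 16.7 to 2391 CPM in EVs but only 4.79 to 19.8 in cells.

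A list of 53 partner genes was read from the same test. Of 48 tested, 19 were higher in EVs, 21 lower and 8 did not pass, where 38.4% of all genes were higher and 42.2% lower, with a median log2 fold change of -0.26 (with library totals 12 were higher and 29 lower). Genes of transmitter synthesis, release and uptake were mostly lower, 9 of 10 tested, with 1 higher. Slc1a3, the glutamate transporter of radial glia and astrocytes, fell from 870 ± 206 CPM in cells to 101 ± 24.9 CPM in EVs (log2 fold change -3.11 ± 0.14, adjusted p = 1.9e-20, edgeR). The kinase gene Camk2d was lower by -2.20 ± 0.24 on the log2 scale. Among 21 scaffold and trafficking genes 10 were higher, 7 lower and 4 did not pass. The largest rises were of Camk2b, a subunit of the calcium-dependent kinase CaMKII, at 59 to 199 CPM in cells and 905 to 24467 CPM in EVs (5.91 ± 0.37, adjusted p = 7.3e-17, edgeR), and of the postsynaptic scaffolds Shank1 (4.25 ± 0.29) and Shank3 (3.54 ± 0.15). AMPA auxiliary subunits were higher in 6, lower in 2 and not past the threshold in 3 of 11 tested.

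Ethanol was compared within culture, each dose against the 0 mg/dL library of the same culture, to ask whether receptor transcripts changed in cells or in EVs after 5 days. The 6 cultures, from 3 pregnancies, entered as independent. No member passed at either dose in either location (edgeR quasi-likelihood test with culture as block; 35 members tested in cells and 29 in EVs; DESeq2 called 0 as well). Over all genes tested, 0% passed in cells and 0.00842% in EVs at 120 mg/dL, and 0.0393% and 0.0842% at 320 mg/dL. At an unadjusted p under 0.05 there were 2 members in cells and 3 in EVs at 120 mg/dL, where 2.5% and 6.26% of all genes were, and 3 and 2 at 320 mg/dL, where 8.57% and 11.9% were. The median standard error of a member's log2 fold change was 0.141 at 120 and 0.142 at 320 mg/dL in cells, and 0.23 and 0.237 in EVs. Changes of this size were not detectable, and clearly larger ones, such as those of Gabra2 and Gria2 in EVs given below, did not pass either. Of the partner genes 0 passed, in 50 tested in cells and 45 in EVs (at an unadjusted p under 0.05, 4 and 0 at 120 mg/dL and 8 and 3 at 320 mg/dL).

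The members with the smallest p were these. In EVs at 120 mg/dL it was Gabra2, with 4.46, 9.16 and 19.7 CPM (lowest, median, highest of 6 cultures) at 0 mg/dL and 12.1, 16.4 and 22.2 CPM at 120 mg/dL, higher in 6 of 6 cultures on 9 to 59 counts per library. The log2 fold change was 0.82 ± 0.24 (edgeR, adjusted p = 0.703; with no filter on low counts, adjusted p = 0.0229). At 320 mg/dL the value was 0.66 ± 0.25, higher in 5 of 6 cultures, and in cells it was 0.15 ± 0.11 and 0.28 ± 0.11. In EVs at 320 mg/dL the smallest p belonged to Gria2, with 7.26, 24.4 and 55.5 CPM at 0 mg/dL and 7.64, 33.2 and 104 CPM at 320 mg/dL, higher in 6 of 6 cultures (0.56 ± 0.17, edgeR adjusted p = 0.192). The rise was largest in pregnancy 5, where 5F went from 55.5 to 104 CPM and 5M from 16.7 to 45.6 CPM; without pregnancy 5 the log2 fold change was 0.16, and that of the EV to cell ratio 0.21. At 120 mg/dL Gria2 was at 0.52 ± 0.17 in EVs, higher in 4 of 6 cultures, and in cells at 320 mg/dL it was at -0.13 ± 0.07.

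In cells at 120 mg/dL the smallest p was that of Grik2, with 4.46, 8.25 and 12.8 CPM at 0 mg/dL and 6.04, 9.76 and 15.6 CPM at 120 mg/dL, higher in 6 of 6 cultures (0.28 ± 0.11, unadjusted p = 0.028, edgeR). At 320 mg/dL it was Grik1, with 1.2, 1.39 and 1.65 CPM at 0 mg/dL and 1.37, 1.77 and 2.24 CPM at 320 mg/dL, again higher in 6 of 6 cultures (0.35 ± 0.13, edgeR adjusted p = 0.48). In both genes the values of the cultures at the 2 doses overlapped.

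**Figure D4:**
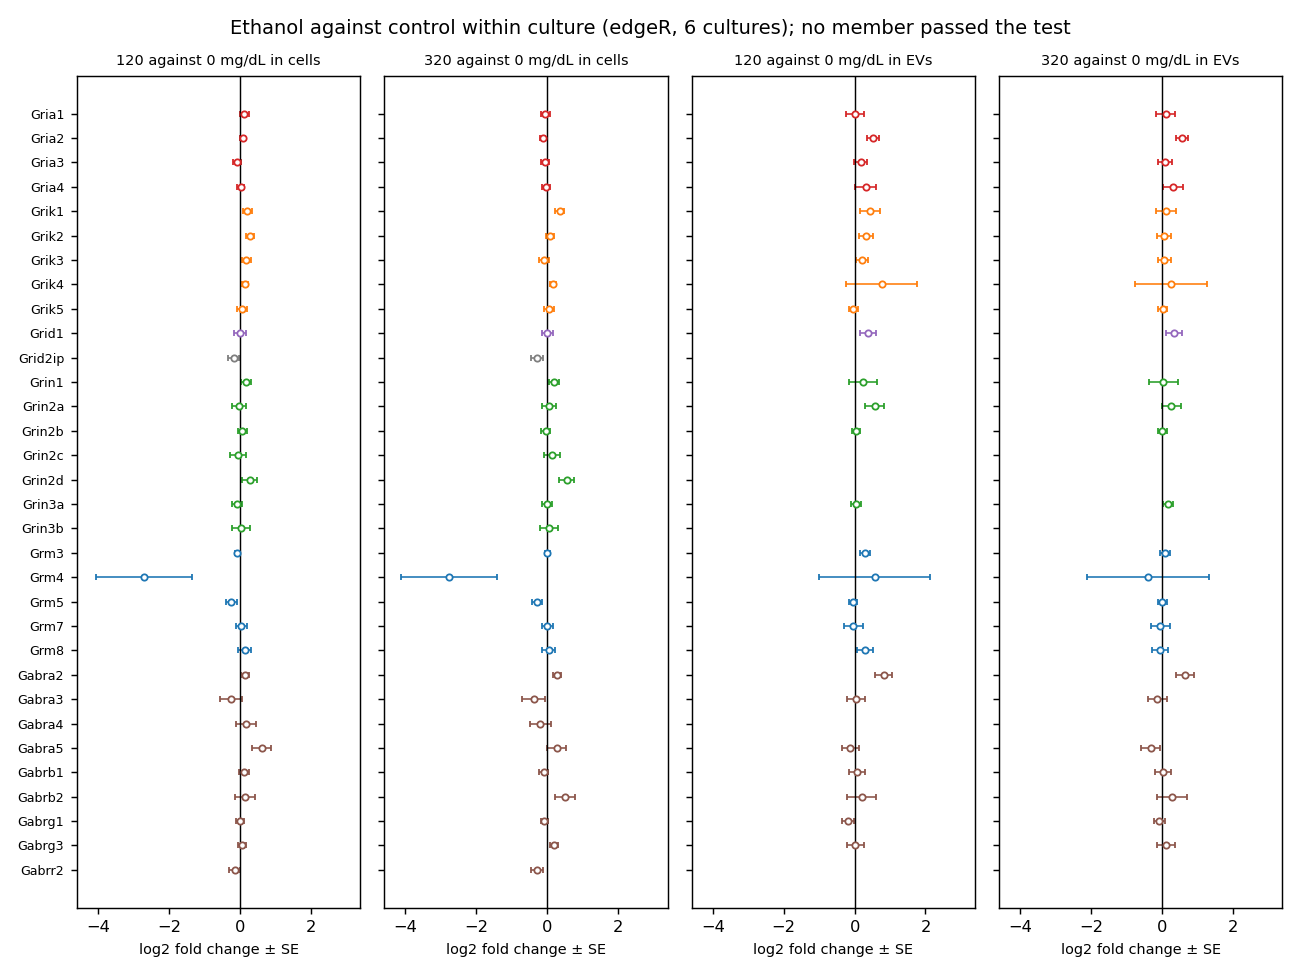
Log2 fold change of each dose against 0 mg/dL (x axis) with its standard error, within culture, in cells and in EVs, for every member tested there; colours give the families and open points mark that no member passed the test. The standard errors are smaller in cells (median 0.141 and 0.142) than in EVs (0.23 and 0.237), and Grm4 has the widest error in all 4 panels.

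The EV to cell ratio was then compared between doses, to ask whether ethanol changed how much of a transcript was found in EVs relative to its culture. Of 39 members tested none passed at 120 or 320 mg/dL (edgeR, blocked by EV and cell pair; DESeq2 0 as well; 2 and 1 members at an unadjusted p under 0.05), and 0.0107% and 0% of all genes did. The smallest p at 120 mg/dL was that of Gabra2, whose ratio was higher in 6 of 6 cultures (0.63 ± 0.27, unadjusted p = 0.0289, edgeR). At 320 mg/dL it was that of Gria2, also higher in 6 of 6 cultures (0.61 ± 0.22, unadjusted p = 0.0134; adjusted p = 0.853, edgeR). Of the 51 partner genes tested 0 passed at either dose (2 and 4 at an unadjusted p under 0.05). These comparisons share their 0 mg/dL libraries with those above.

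Grm4, a group III metabotropic receptor, took either a low or a high level from library to library. Whether other members did so was not tested, and Grik4 also varied widely between EV libraries (16.7 to 2391 CPM). In cells, 8 libraries lay between 0.513 and 3.31 CPM and 10 between 22 and 126 CPM, with none between. In EVs, 7 libraries lay between 3.82 and 23.8 CPM and 11 between 505 and 5287 CPM. The high EV libraries held 917 to 19697 counts of this gene. EV and cell libraries of the same culture and dose were high together in 6 of 18 pairs and low together in 3, while in 5 the EV library alone and in 4 the cell library alone was high, so that the state of a cell library did not give that of its EVs. The gap values were found after the data were seen.

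By dose, the 6 cell libraries at 0 mg/dL were all in the high range, with 22, 86.7 and 99 CPM (lowest, median, highest), whereas 2 of 6 were at 120 mg/dL (0.625, 3.07 and 126 CPM) and 2 of 6 at 320 mg/dL (0.513, 2.64 and 62.7 CPM). Each culture was lower at 320 than at 0 mg/dL, and 5 of 6 were lower at 120 mg/dL, 4M being the exception. The mean log2 difference was -3.43 ± 2.47 (SD, n = 6 cultures, exact sign-change permutation test, two-sided, p = 0.03125, the smallest that 6 cultures can give) at 320 mg/dL and -3.13 ± 2.31 (exact p = 0.0625) at 120 mg/dL. Adjusted over the 4 such tests of Grm4, chosen after its values were seen, both were 0.125, and in the edgeR test over all genes the adjusted p was 0.602 and 1. In EVs, 4 of 6 libraries were in the high range at 0 mg/dL, 4 at 120 and 3 at 320, with no common direction (exact p = 0.781 and 0.656). The exact tests took the 6 cultures, from 3 pregnancies, as independent, so their p-values may be too small. EV against cell, Grm4 passed as higher (log2 fold change 5.02 ± 0.95, adjusted p = 1.15e-05, edgeR), in 14 of 18 pairs. Of its exon bases, 1.98% lie opposite another gene.

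**Figure D5:**
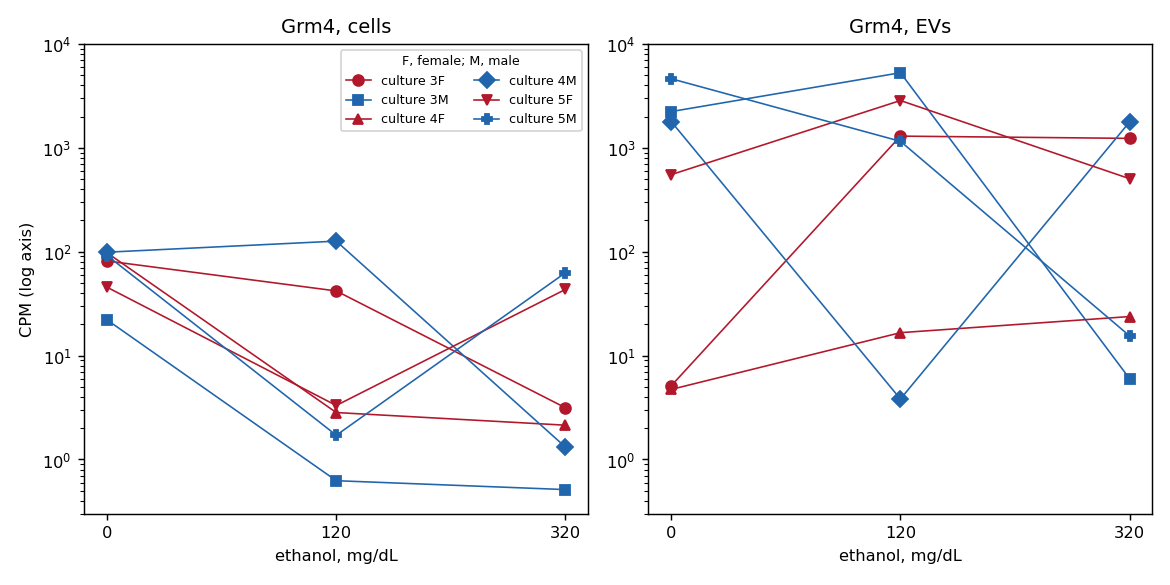
Grm4 in CPM (log axis) at each ethanol dose in cells and in EVs, with a line for each of the 6 cultures (red, female; blue, male). All 6 cell libraries at 0 mg/dL lie between 22 and 99 CPM, and most at 120 and 320 mg/dL lie below 3.31 CPM, while the EV libraries jump between the ranges without a common order.

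Female and male cultures were compared in EVs and in cells, with the 3 libraries of a culture entering separately, so that p-values rest on 3 cultures of each sex and are too small. In EVs, 16 of 29 tested members were higher in female cultures and 0 lower (edgeR, 18 EV libraries), where 7.03% of all genes were higher and 4.06% lower (11.1% in all). With pregnancy as block 18 members and 27.1% of all genes passed, and without pregnancy 3 18 members and 23.1%. When the counts of each culture were summed over doses, 0 members passed, and 0% of all genes. Without the 6 EV libraries under 2 M counts (4 female, 2 male) 0 members and 0.26% of all genes passed, without pregnancy 5 0 members and 0.0203%, without pregnancy 4 1 member and 3.7%, and with library totals 9 members and 2.84%. Among the 6 with the smallest p were Gabra5 (log2 fold change 1.42 ± 0.31), Grm8 (1.57 ± 0.35), Gria1 (1.55 ± 0.37), Gabra3 (1.45 ± 0.35) and Grm7 (1.36 ± 0.34), with adjusted p from 0.016 to 0.0227 (edgeR). The other 10 included Grik1, Grik2, Grik3, Gria2, Grm3, Gabrb1, Gabrb2 and Gabrg3, with log2 fold changes of 0.88 to 1.48.

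By culture, Gabra5 was at 4.37, 9.16 and 9.65 CPM in the EVs of 3F, 4F and 5F and at 1.7, 2.74 and 4.22 CPM in those of 3M, 4M and 5M, which did not overlap. Gria1 was at 8.53, 30.6 and 15.6 CPM in female and at 6.16, 4.59 and 8.42 CPM in male EVs, and Gabra3 at 3.65, 13 and 6.87 against 2.81, 2.33 and 3.56 CPM. For Grm8 (10.3, 41.2 and 26.8 against 7.77, 8.75 and 11 CPM) and Grm7 (13.1, 42.4 and 27.7 against 10.4, 9.56 and 14.3 CPM) culture 3F fell inside the male range. Of the 34 members tested in EVs against cells, 6 had all 3 female cultures above all 3 male cultures in EVs and 0 had them all below, where 7.62% and 9.17% of all genes tested did; in cells 6 had them above and 1 below, where 8.03% and 2.92% did. The list of genes from outside the brain summed to 90.0 to 258 CPM (median 123) in female and 36 to 494 CPM (median 141) in male EV libraries. Without Nphs1 the sums were 13.4 to 57.5 CPM (median 29.9) in female and 10.4 to 26.8 CPM (median 17.6) in male EV libraries, and 29.9 to 57.5 CPM in the 3 libraries of 4F; its part in the sex difference was not tested. Of the partner genes 7 were higher in female EVs and 1 lower, of 43 tested.

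In cells, 4 members were higher in female cultures and 1 lower of 34 tested (edgeR), against 3.2% and 2.63% of all genes (5.83% in all). With pregnancy as block 5 were higher and 3 lower (17.3% of all genes passed), without pregnancy 5 only 1 passed (1.17%), and with counts summed over doses 0 passed (0.0334%). Grik3 was at 2.22, 4.07 and 3.56 CPM in 3F, 4F and 5F and at 0.816, 1.23 and 1.61 CPM in 3M, 4M and 5M (1.40 ± 0.23, edgeR adjusted p = 0.00181). Gabra2 went the other way, at 8.08, 3.92 and 2.76 CPM in female and 9.22, 12.9 and 9.51 CPM in male cells (-1.14 ± 0.26, edgeR adjusted p = 0.0153), and the 2 sets of cultures did not overlap. Gabrg3 (0.79 ± 0.16) and Grm8 (0.70 ± 0.16) each had all female cultures above all male ones. An exact permutation test of 3 against 3 cultures cannot give a p under 0.10.

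Culture 3M stood apart in several cell values. Its Gria2 level was the lowest of the 6 cultures in cells and in EVs, its Gria1 level in cells (5.58 CPM) was the highest, the other 5 lying between 0.967 and 2.11 CPM, and its Grid1 level (12.1 CPM) was the lowest. Gabrq was the one member with a library above 10 times its location's median and at least 10 counts there, with 10 counts in 1 EV library and a median of 0; 3.26% of the 20674 genes with such a count did so in EVs or cells.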

How the data were processed

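RNA of 18 EV and 18 cell samples, each pooled from 4 flasks, was sequenced. The values analysed are the read counts per gene that the authors deposited. By the study's methods and processing notes, libraries were made with a stranded total RNA kit, trimmed, deduplicated, aligned with STAR to mm39 and counted with HTSeq. The strand setting and the annotation used for counting are not given in the sources used here, so reads of overlapping antisense genes may be included, and reads of near-identical copies may be split or lost.

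Counts were tested with edgeR 4.0.16 in R 4.3.3 (filterByExpr with a minimum count of 10 and a minimum total of 15, TMM scaling, quasi-likelihood F test, Benjamini-Hochberg adjustment over all genes tested, threshold 0.05). The standard error is the log2 fold change divided by the root of F. EV against cell was fitted with sex and dose over 36 libraries, doses with culture as block, EV to cell ratios with the pair as block and a term for each culture's ratio, and sex with dose. DESeq2 1.42.0 was an alternative, with other scaling, no filter, thinned libraries, summed doses, each pregnancy left out and other blocks; leaving out the 6 EV libraries under 2 M counts and testing Grm4 by dose were chosen after seeing the data. The test script was checked on simulated counts. CPM use the TMM factors of the 36-library fit; means ± SD are over 6 culture means. Depth was 0.959 to 5.51 M counts in EVs and 26.6 to 55.3 M in cells.

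By the labels, the same cultures gave the libraries of all doses and of both EVs and cells, and the number marks the pregnancy. Deviations of a culture's libraries from their group means at 0 and 120 mg/dL correlated with a median r of 0.278 in EVs (6 of 6 over 0.1) and 0.707 in cells, and those of EV and cell libraries of a pair with a median of 0.0786 (6 of 18 over 0.1). Cultures from 3 pregnancies are the replicates.

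Members named in full were, in each family, those with the highest level per kb in cells and in EVs; for EV against cell, the 3 largest changes in each direction that passed and had one direction in all 6 cultures; for each other comparison, up to 6 members that passed, or the one with the smallest p; and any with a library over 10 times its location's median and at least 10 counts there. Others are named as examples, chosen after their values were seen. Members, partner genes and marker lists were chosen with earlier results of these data known. Sequences and positions are from the GRCm39 genome and the GENCODE vM39 annotation. Protein sequences were not used here. Of the genes analysed, 5 members and 1 partner gene are not reported here by name, and the figures leave them out; counts over the set include them.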

Additional observations from a re-analysis of the deposited data

Results flagged for a closer look

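Some single libraries stood far from the other 5 cultures of the same location and dose. This was judged by Dixon's criterion on log2(CPM + 0.5), with a critical value of 0.625 for 6 values, over 114 such groups. Of these, 9 stood out. Chance would give about 1 in 20 groups if the 6 values were independent and normal, which counts near 0 are not. Culture 3M held 6 of them. In its cells Gabra3 was at 2.04 CPM at 0 mg/dL (the others 0.617 to 0.901), Grid1 at 8.61 CPM at 0 mg/dL (27.6 to 53.1), Gria1 at 6.07 CPM at 320 mg/dL (0.877 to 1.81), Gabra5 at 0.41 CPM at 320 mg/dL (0.798 to 1.02) and Gabrq at 0.0354 CPM at 120 mg/dL on 3 counts (0.116 to 0.162). In its EVs Grik5 was at 45.4 CPM at 0 mg/dL (27.6 to 30.8). Grik5 stood apart in 2 other places, at 20.4 CPM on 12 counts in the EVs of 4F at 320 mg/dL (31.3 to 39.6) and at 23.1 CPM in the cells of 3F at 0 mg/dL (12.1 to 15.2). Gabrq was at 1.29 CPM on 3 counts in the EVs of 5F at 0 mg/dL, where the other 5 libraries had none. With the others all at 0, any count there would have stood out.

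For 5 of 76 combinations of member, dose and location looked at, all 3 female cultures moved one way against 0 mg/dL and all 3 male cultures the other way. Over all genes tested the same held for 3.79% of combinations. These differences were not tested. The combinations looked at cover only some of the members, and members named in full were chosen in part by their dose and sex results. In EVs at 120 mg/dL the female minus male difference of the log2 changes was -4.06 for Grik4 (mean -1.49 in females and 2.57 in males) and -0.93 for Gabra3 (-0.31 and 0.62). Moves of any size were counted, such as that of Grik4 in the EVs of 3M from 405 to 417 CPM. In EVs at 320 mg/dL it was -1.24 for Grm7 (-0.57 and 0.66) and -0.68 for Grm8 (-0.36 and 0.32). In cells at 320 mg/dL it was -0.84 for Grid1 (-0.41 and 0.42).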

How the results depend on the processing

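EV against cell, the members' 26 higher and 6 lower calls became 19 to 38 and 5 to 8 over the alternatives run, except after thinning every library to the smallest total, where 13 of 16 tested members passed, 9 as higher. Without each pregnancy in turn 24 to 26 were higher and 5 or 6 lower, and with the pair as replicate block 26 and 6. Over all genes tested, 65.1% (control libraries alone) to 83.2% (library totals) passed in these settings. The share was 78.9% after thinning, with 50.7% of those calls higher. It was 79.9% with the replicate block and 75.5% to 77.3% without each pregnancy. Partner genes gave 26 calls, 12 higher, of 33 tested after thinning and 12 higher with library totals. With library totals the fold change turned to -0.36 for Gabrr2, -0.47 for Grin3a and -0.28 for Grin3b; with no filter on low counts to -0.17, -0.34 and -0.042; with doses summed Grin3a was at -0.015. Gria4, near 0, turned to 0.020 with DESeq2, 0.16 with the replicate block, 0.35 after thinning, and lay between -0.15 and 0.25 without each pregnancy (0.052 without 3, 0.25 without 4). Without a filter 1 member passed at 120 mg/dL in EVs (Gabra2) and 1 in the ratio at 120 mg/dL (Grm4), where 0.53% and 0.18% of all genes did. Every other setting gave 0 members for all doses and ratios. Female against male in EVs, 16 members passed, 9 with library totals, 0 to 18 without each pregnancy, 18 with the replicate block (pregnancy), 0 with doses summed and 0 without the 6 shallow EV libraries, all of them higher. In cells 5 passed (4 higher, 1 lower), 2 with library totals (1 higher), 1 to 7 without each pregnancy (1 to 5 higher, 0 to 3 lower), 8 with the replicate block (3 lower) and 0 with doses summed. Over all genes in cells, 6.33% passed with library totals and 1.17% to 12.3% without each pregnancy. Of the values of single genes, 539 kept their direction and side of the threshold, 63 no longer passed, 2 newly passed and 12 changed sign. The causes of these changes were not tested, other than that thinning leaves fewer genes to test. Depth limits the 19 members with a median under 10 counts in EV libraries.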
